A study of Mus musculus with 10 samples.

Results

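The proteasome subunits and regulators were followed in mouse blood, as the 47 genes of the expression table whose symbols begin with Psma, Psmb, Psmc, Psmd, Psme, Psmf or Psmg and a number, out of 8904 genes in all. They comprised 7 alpha ring and 7 constitutive beta ring subunits of the core particle, 3 immunoproteasome subunits, 6 ATPases of the base, 11 other base and lid subunits, 6 activator and inhibitor genes and 7 assembly chaperones. The symbols Psma8 and Psmb11, for the testis and thymus forms, were not among the rows. RNA-seq of whole blood was compared between 5 adult C57BL/6 mice given metformin for 30 days and 5 adult C57BL/6 mice given PBS for 30 days, to examine which transcripts differed after the drug. In its discussion the paper describes the mice in which it tested metformin as middle-aged females only, although it also reports young and older mice. Its section on blood calls the treated mice aged. Metformin is a biguanide used against diabetes, and PBS is a buffered saline. No transgene or gene deletion was named for either group, and the study's methods name tail vein injection or oral dosing without saying which dose and route applied to these mice. Each library was taken as 1 mouse, although the labels do not say that the libraries of a group came from separate mice, so the p-values measure only the spread between these libraries. Levels are the deposited log2 FPKM, in which fragments are counted per kilobase of transcript and relative to the total mapped.

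The proteasome is the protease that degrades proteins tagged with ubiquitin in the cytosol and nucleus. Its core is a stack of rings whose outer alpha subunits gate the channel and whose inner beta subunits hold the active sites, and a regulatory particle with an ATPase base and a lid recognises, unfolds and deubiquitinates the substrate. In immune cells and after interferon-gamma, the catalytic subunits Psmb5, Psmb6 and Psmb7 are replaced by Psmb8, Psmb9 and Psmb10, which favours the peptides shown on MHC class I, while other caps such as PA28 and PA200 bind the core in place of the regulatory particle. Maturing red blood cells rely on the ubiquitin-proteasome system to remodel their contents.

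The libraries were not alike in their cell type markers. The mean log2 level of 10 heart markers was 0.49 to 0.79 in the metformin group and 0.19 to 2.12 in control 2, control 3 and control 4, but 8.31 in control 1 and 8.40 in control 5. Of 10 erythroid markers 8 were in the table, and their mean was 4.32 to 4.81 in the metformin group, 3.44 to 4.24 in control 2 to 4, 0.24 in control 1 and 1.35 in control 5. The 10 fast skeletal muscle markers averaged 4.93 to 5.57 in the metformin group, against 0.28 to 0.75 over the 5 controls, and all 10 were higher in metformin in both fits described below. The 10 leukocyte markers averaged 2.32 to 3.18 in the metformin group, 3.94 to 4.94 in control 2 to 4, 0.86 in control 1 and 4.33 in control 5. Red cell markers of the labelled tissue were thus high in 8 of the 10 libraries, and control 1 and control 5 are given apart from the other controls throughout. In whole blood, fewer cells of a type and less RNA per cell cannot be told apart.

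The promoters of 5 members are shown, since these genes carry the patterns below. Psmf1 and Psme3 had the largest differences between libraries, Psmb5 and Psmb6 are catalytic subunits of the core, and Psme4 was called higher in metformin by a test that its filter favoured. Each sequence is the RefSeq GRCm38.p6 reference from 150 bases before to 20 bases after the annotated start, read 5′ to 3′ on the strand of the gene, and capitals mark a motif match. The windows are chr2:151741291-151741460, minus strand for Psmf1, chr11:101316063-101316232, plus strand for Psme3, chr14:54617976-54618145, minus strand for Psmb5, chr11:70525207-70525376, plus strand for Psmb6 and chr11:30771625-30771794, plus strand for Psme4.
Psmf1: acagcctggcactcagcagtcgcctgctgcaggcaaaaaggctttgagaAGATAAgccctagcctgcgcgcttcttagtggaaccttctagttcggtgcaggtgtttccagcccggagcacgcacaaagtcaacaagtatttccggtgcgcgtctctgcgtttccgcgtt
Psme3: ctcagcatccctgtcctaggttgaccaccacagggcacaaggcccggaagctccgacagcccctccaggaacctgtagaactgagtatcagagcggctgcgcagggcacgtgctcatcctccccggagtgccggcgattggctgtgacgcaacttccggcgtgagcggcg
Psmb5: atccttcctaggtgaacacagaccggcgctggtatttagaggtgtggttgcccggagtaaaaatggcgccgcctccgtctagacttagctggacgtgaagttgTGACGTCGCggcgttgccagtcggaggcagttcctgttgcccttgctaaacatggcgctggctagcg
Psmb6: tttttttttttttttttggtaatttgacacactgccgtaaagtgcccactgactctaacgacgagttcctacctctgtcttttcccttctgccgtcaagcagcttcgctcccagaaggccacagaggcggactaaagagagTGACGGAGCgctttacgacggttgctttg
Psme4: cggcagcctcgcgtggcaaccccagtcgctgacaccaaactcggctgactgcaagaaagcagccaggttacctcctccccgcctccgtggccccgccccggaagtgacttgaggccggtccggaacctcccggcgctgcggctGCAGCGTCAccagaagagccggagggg

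The motifs searched on both strands, over 250 bases before to 50 bases after each start, were TGACNNNGC, the core of the antioxidant response element that Nfe2l1 and Nfe2l2 bind, the core of the interferon-stimulated response element, and AGATAA, the motif of the erythroid factor Gata1, which was added after the values were seen. The 3 motifs share no fixed stretch that would make 1 match count as another. Of the 47 members 40 were in the promoter table. TGACNNNGC was found in 6 of the 40 (15%), against 12.4% of 32851 promoters in the whole table. In each such share the members were counted as genes and the whole table as promoters. Psma6, Psmc2 and Psme2 had more than 1 promoter, so the shares are not on the same unit. The 6 were Psmb5, Psmb6, Psme4, Psmc6, Psmd12 and Psmd9. The interferon response core was found in 5 members (12.5%), against 3.44% of all promoters, namely Psmb3, Psmd4, Psmd9, Psme1 and Psmg4. The immunoproteasome genes Psmb8, Psmb9 and Psmb10 held no match to any of the 3 motifs. AGATAA was found in 3 members (7.5%), against 11.2% of all promoters. In the windows above, Psmf1 held AGATAA at position -101 from the start, Psmb5, Psmb6 and Psme4 held TGACNNNGC at -47, -9 and -7, with that of Psme4 on the opposite strand, and Psme3 held no match. The RefSeq start of Psmf1 lies inside the longer gene span of the GENCODE annotation, so other starts are annotated. A match is a description of the sequence and says nothing of binding in blood.

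Most members were expressed at modest levels. The median level of the 47 members was a log2 FPKM of 1.33 to 1.77 over the 10 libraries, against 0.78 to 0.79 for all genes of the table. Psme3 and Psmd4 had the highest mean log2 levels of the members over the 10 libraries, 5.81 and 4.87, and Psmg1 and Psmg3, which assist the assembly of the alpha ring, had the lowest, both 0.52, among several members near 0 whose order is uncertain. A log2 level of at least 1 in at least 5 libraries was required for testing, which 38 of 47 members and 3442 of 8904 genes met. The 9 members that did not meet it were the 7 assembly chaperones (Psmg1 to Psmg4, Psmd5, Psmd9 and Psmd10), the base subunit Psmd1 and Psme2b, a near copy of Psme2 with which reads may be shared. Psme4 passed only through the metformin group, in which all 5 libraries reached the minimum, while 0 of 5 controls did, so its test was bound to favour a difference and its values are given below as a description.

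Metformin was compared with control in all 10 libraries with limma, which fits a linear model to each gene and shares the spread between genes. Of the 38 tested members 1 was higher (Psme4) and 1 was lower (Psmb10) at an adjusted p under 0.05, while 4.21% of all tested genes were called higher and 3.11% lower. Before adjustment, 2 of 38 members (5.26%) were higher and 8 (21.1%) lower at p under 0.05, against 16.2% and 12.6% of all tested genes. The estimate was above 0 in 12 members and below 0 in 26, and its median was -0.17 on the log2 scale, against 0.01 over all tested genes. In the fit without control 1 and control 5, Psme4 was again higher, and Psmb8, Psmb9 and Psmb10 were lower, against 5.81% of genes called higher and 9.06% called lower. The median estimate of the members was then -0.07, against 0.07 over all tested genes. Both fits share the metformin libraries and control 2 to 4.

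**Figure D1:**
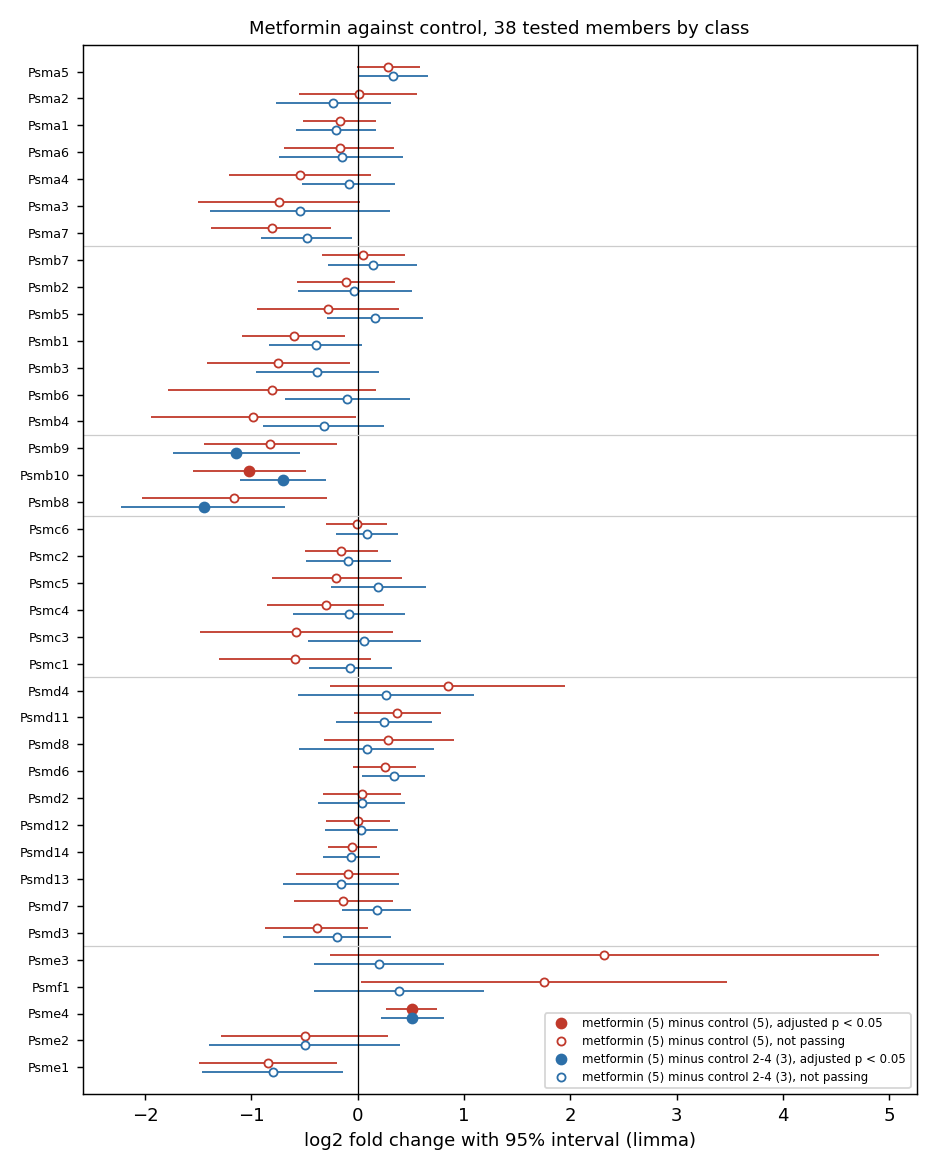
Log2 fold change of metformin over control with its 95% interval (x axis) for the 38 tested members (y axis, grouped by class), in red for all 10 libraries and in blue for metformin against control 2 to 4, with filled points at a limma adjusted p under 0.05. Only Psmb10 and Psme4 are filled in red, while Psmb8, Psmb9, Psmb10 and Psme4 are filled in blue, and the intervals of Psme3 and Psmf1 are the widest in red.

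All 3 immunoproteasome subunits were lower in metformin than in control 2 to 4. Their mean log2 level was 1.46, 1.68, 1.31, 1.16 and 0.69 in metformin 1 to 5, against 2.65, 2.05 and 2.38 in control 2, control 3 and control 4, 1.73 in control 1 and 2.50 in control 5. Every metformin library was below every control, by a narrow margin for metformin 2 against control 1.

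Psmb10 (ENSMUSG00000031897, GRCm38 chr8:105935735-105938444, minus strand), the immunoproteasome form of the trypsin-like site, was 0.94, 1.28, 1.11, 0.96 and 0.69 in metformin 1 to 5, against 2.0, 1.47 and 1.63 in control 2 to 4, 2.27 in control 1 and 2.70 in control 5. All 5 metformin libraries were below all 5 controls, which held for 2 of the 38 tested members (Psma7 and Psmb10, 5.26%) and for 5.23% of all tested genes. The mean log2 level was 0.99 ± 0.22 in the metformin group and 2.01 ± 0.497 in the control group (SD, n = 5 each). Psmb10 reached the log2 minimum of 1 in all 5 controls and in 2 metformin libraries. It thus entered the limma test through the group in which it was high, so its values are a description. Psmb10 differed by -1.02 on the log2 scale (SE 0.243, limma adjusted p = 0.0311). The 2-sided exact permutation test gave p = 0.00794, the smallest that 252 arrangements allow. Without control 1 and control 5 the difference was -0.70 (limma adjusted p = 0.0285). The call of the all-library fit was lost when any 1 of 5 libraries was left out, with an adjusted p of 0.0676 for control 5, and of 0.0688, 0.0680, 0.0812 and 0.0929 for metformin 1, 3, 4 and 5. In the smaller set it was lost in 6 of 8 such fits (all but those leaving out control 3 or metformin 2), at an adjusted p of up to 0.0979. With no filter on low values the adjusted p was 0.0622, and with the erythroid marker mean as a covariate the difference was -0.64 (adjusted p = 0.110). When each library was centred on its ribosomal protein genes, which moved the median of all tested genes to 0.84, the difference was -0.19 (adjusted p = 0.430), and against control 2 to 4 it was -0.0039 (adjusted p = 0.985).

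Psmb8 (ENSMUSG00000024338, chr17:34197721-34201454, plus strand), the immunoproteasome form of the chymotrypsin-like site, was 1.77, 2.62, 1.72, 1.48 and 0.89 in metformin 1 to 5, against 3.35, 2.88 and 3.20 in control 2 to 4, 1.66 in control 1 and 3.18 in control 5. The metformin libraries were all below control 2 to 4, and control 1 lay among them. In all 10 libraries the difference was -1.16 (SE 0.395, limma adjusted p = 0.0983; exact permutation p = 0.0317), and without control 1 and control 5 Psmb8 fell by 1.45 (SE 0.347, adjusted p = 0.0205). Within that smaller set the adjusted p was 0.0715 without control 2, 0.0590 without control 4 and 0.0556 without metformin 4. Leaving out control 1 alone gave -1.46 (adjusted p = 0.0239), and ribosomal centring in the smaller set gave -0.75 (adjusted p = 0.0397), but -0.33 over all libraries (adjusted p = 0.470).

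Psmb9 (ENSMUSG00000096727, chr17:34181987-34187764, minus strand), the immunoproteasome subunit that takes the place of Psmb6, was 1.67, 1.15, 1.10, 1.05 and 0.51 in metformin 1 to 5, against 2.59, 1.80 and 2.31 in control 2 to 4, 1.25 in control 1 and 1.61 in control 5. Every metformin library was again below control 2 to 4, while control 1 and control 5 lay within the metformin range. The difference over all libraries was -0.82 (SE 0.287, limma adjusted p = 0.105; exact permutation p = 0.0238), and without control 1 and control 5 Psmb9 fell by 1.14 (SE 0.269, adjusted p = 0.0197). In the smaller set the adjusted p was 0.0741 without control 2 and 0.0590 without control 4, and ribosomal centring gave -0.44 (adjusted p = 0.159), or 0.01 over all libraries (adjusted p = 0.980). Psmb9 shares 212 exon bases with Tap1, a peptide transporter gene on the opposite strand, and the sources do not state that strand was used in counting, so reads of the 2 genes may be mixed. All 5 metformin libraries were below control 2 to 4 in 4 tested members (Psma7, Psmb8, Psmb9 and Psmb10, 10.5%), against 12.9% of all tested genes.

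The constitutive partners of the same sites gave no call in either fit. Of the 7 constitutive beta subunits 0 were called with limma. Before adjustment, 3 (Psmb1, Psmb3 and Psmb4) were lower over all libraries at p under 0.05, against 12.6% of all tested genes. Without control 1 and control 5, 0 of the 7 were lower at an unadjusted p under 0.05. Psmb5, the chymotrypsin-like subunit, was 2.16, 2.41, 2.01, 1.67 and 2.03 in metformin 1 to 5, against 1.91, 1.94 and 1.84 in control 2 to 4, 2.92 in control 1 and 3.07 in control 5. Its log2 difference was -0.28 (95% interval -0.95 to 0.39), and without control 1 and control 5 it was 0.16 (-0.29 to 0.61). Psmb6, the caspase-like subunit, was 1.79, 2.27, 1.78, 1.72 and 2.0 in metformin 1 to 5, against 2.06, 1.43 and 2.54 in control 2 to 4, 3.76 in control 1 and 3.81 in control 5. Its difference of -0.81 (-1.78 to 0.17) became -0.10 (-0.68 to 0.49) without the last 2 libraries. Psmb7, the trypsin-like subunit, was 1.91, 2.04, 1.77, 1.45 and 1.64 in metformin 1 to 5, against 1.64, 1.47 and 1.76 in control 2 to 4, 1.87 in control 1 and 1.80 in control 5, with a difference of 0.05 (-0.34 to 0.45). The metformin and control ranges of these 3 genes overlapped, and the 2-sided exact permutation tests gave p = 0.373, 0.183 and 0.69 for Psmb5, Psmb6 and Psmb7 among the 6 catalytic genes tested so. A pseudogene of each of the 3 is annotated (Psmb5-ps, Psmb6-ps, Psmb6-ps2 and Psmb7-ps2), and reads shared with them cannot be separated. Psma4, Psma5, Psmb7, Psmb8, Psmc3, Psmd1, Psmd3, Psmd9, Psmd13 and Psme1 also share exon bases with a gene on the opposite strand. The overlap runs from 14 bases in Psme1 to 1849 in Psmd9, so reads may be mixed there too, to an unlike extent.

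**Figure D2:**
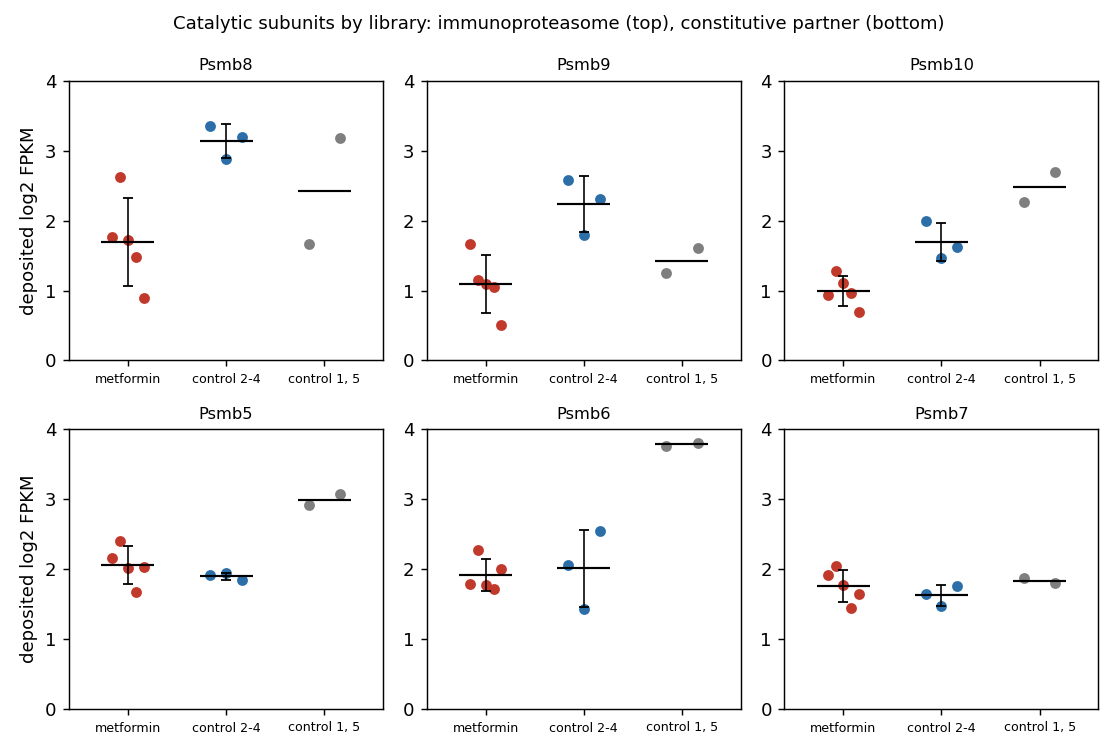
Deposited log2 FPKM (y axis) of the immunoproteasome subunits (upper row) and their constitutive partners (lower row) in metformin (red, 5 libraries), control 2 to 4 (blue) and control 1 and 5 (grey), where points are libraries, lines are means and bars are the SD over libraries, with none for the last set. Psmb8, Psmb9 and Psmb10 are lower in every metformin library than in control 2 to 4, while Psmb5 and Psmb6 are highest in control 1 and control 5.

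Set against its partner within each library, every immunoproteasome subunit had a lower mean difference in the metformin group than in control 2 to 4. Psmb8 minus Psmb5 was -0.36 ± 0.49 on the log2 scale in metformin (SD, n = 5) and 1.25 ± 0.27 in control 2 to 4 (n = 3), but -1.26 in control 1 and 0.11 in control 5. Psmb9 minus Psmb6 was -0.82 ± 0.52 in metformin and 0.22 ± 0.40 in control 2 to 4, with -2.51 in control 1 and -2.20 in control 5, and here metformin 1 (-0.13) lay above control 4 (-0.23). Psmb10 minus Psmb7 was -0.77 ± 0.20 in metformin and 0.08 ± 0.25 in control 2 to 4, with 0.40 in control 1 and 0.91 in control 5. Over all 5 controls, Psmb8 minus Psmb5 was 0.52 ± 1.13 and Psmb10 minus Psmb7 was 0.31 ± 0.41. Psmb9 minus Psmb6 was -0.81 ± 1.44 over all 5 controls, nearly the same as in metformin. These differences were not tested. The leukocyte marker mean was also lower in each metformin library (2.32 to 3.18) than in control 2 to 4 (3.94 to 4.94). It was 0.86 in control 1 and 4.33 in control 5. In the fit without control 1 and control 5, 5 of 9 tested leukocyte genes were lower (limma), against 9.06% of all tested genes. Among the others, Lyz2 (-0.66, limma adjusted p = 0.598) and Fcer1g (0.04, limma adjusted p = 0.969) were not called. Over all libraries 0 of 9 were lower, against 3.11%, and 1 of 9 at an unadjusted p under 0.05, against 12.6%. Of 10 interferon and antigen presentation genes 7 were tested, and 1 was lower without control 1 and control 5, against the same 9.06%. This was Tapbp, the chaperone tapasin (log2 difference -1.71, limma adjusted p = 0.00136). Over all libraries 0 were called. Before adjustment, 1 was higher and 2 were lower at p under 0.05, against 16.2% and 12.6% of all tested genes. The mean of these 10 genes was 2.74 to 2.89 in metformin, 3.04 to 3.29 in control 2 to 4, 1.41 in control 1 and 2.37 in control 5. The fast skeletal muscle markers, at 4.93 to 5.57 in metformin and 0.28 to 0.75 in the controls, separated all metformin libraries from all controls. The part of these markers in the immunoproteasome result was not tested.

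The beta ring and the ATPases of the base were highest in control 1 and control 5. The constitutive beta ring had a mean log2 level of 1.63 to 2.09 in metformin and 1.71 to 2.18 in control 2 to 4, against 2.90 in control 1 and 2.86 in control 5. The ATPases averaged 1.33 to 1.78 in metformin and 1.26 to 1.58 in control 2 to 4, against 2.46 and 2.10 in control 1 and control 5. The alpha ring averaged 1.35 to 1.78 in metformin and 1.58 to 1.88 in control 2 to 4, with 2.15 in control 1 and 1.88 in control 5, the last within the range of the other controls. Of the 38 tested members 13 were higher in both control 1 and control 5 than in all other libraries (34.2%, against 20% of all tested genes), and 3 were lower in both (7.89%, against 21.8%). The 13 were Psma4 and Psma7 of the alpha ring, Psmb1, Psmb3, Psmb4, Psmb5 and Psmb6 of the beta ring, Psmb10, the ATPases Psmc1, Psmc3, Psmc4 and Psmc5, and the lid subunit Psmd7. The 3 lower ones were Psmd4, Psme3 and Psmf1. Since control 1 and control 5 were set apart from their heart transcripts, these are descriptions of 2 libraries with no test.

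Psmb4, a non-catalytic beta subunit, was the member with the largest change estimate in its class, and was 2.38, 2.16, 2.41, 2.08 and 2.31 in metformin 1 to 5, against 2.74, 2.01 and 3.02 in control 2 to 4, 4.53 in control 1 and 3.95 in control 5. The metformin libraries lay within the range of control 2 to 4, and control 1 and control 5 were above all of them. Its log2 difference was -0.98 (SE 0.436, limma adjusted p = 0.169) over all libraries and -0.32 (SE 0.257, adjusted p = 0.436) without control 1 and control 5. Among the ATPases Psmc1, which had the largest estimate, was 1.0 to 1.58 in metformin, 1.11 to 1.53 in control 2 to 4, 2.88 in control 1 and 2.25 in control 5, and its difference of -0.59 became -0.07 without the last pair. Psmc3, next to it, was 2.05 to 2.81 in metformin, 2.09 to 2.56 in control 2 to 4, 4.01 in control 1 and 3.75 in control 5. The control 1 and control 5 mean exceeded that of control 2 to 4 by 1.78 for Psmb6, 1.65 for Psmb4, 1.60 for Psmc3, 1.30 for Psmc1, 1.15 for Psma4 and 1.10 for Psmb5 on the log2 scale.

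Of the members with no call in either fit, Psma7 of the alpha ring had the smallest adjusted p over all libraries. Psma7 was 1.50, 1.93, 1.63, 1.28 and 1.72 in metformin 1 to 5, against 2.18, 2.12 and 1.96 in control 2 to 4, 2.94 in control 1 and 2.92 in control 5. The groups did not overlap, yet the difference of -0.81 missed the threshold (SE 0.257, limma adjusted p = 0.0808), as did that of -0.48 without control 1 and control 5 (adjusted p = 0.13). Psma5 was 1.36, 1.44, 1.45, 1.43 and 1.44 in metformin 1 to 5, against 1.28, 0.82 and 1.18 in control 2 to 4, 1.31 in control 1 and 1.08 in control 5. It was with Psme4 one of 2 tested members (5.26%) higher in all metformin libraries than in all controls, which was true of 5.69% of all tested genes, and its difference was 0.29 (SE 0.136, adjusted p = 0.181). The other 5 alpha subunits had estimates of -0.74 (Psma3) to 0.01 (Psma2) and none passed the test. The 11 other base and lid subunits had a mean log2 level of 1.65 to 1.93 in metformin, 1.56 to 1.80 in control 2 to 4, 1.66 in control 1 and 1.56 in control 5. Psmd6, a lid subunit, was 1.29, 1.47, 1.30, 1.50 and 1.46 in metformin 1 to 5, against 1.10, 1.0 and 1.09 in control 2 to 4, 1.43 in control 1 and 1.11 in control 5, so that its groups overlapped only through control 1 (difference 0.26, adjusted p = 0.216). All metformin libraries were above control 2 to 4 in 3 tested members (Psma5, Psmd6 and Psme4, 7.89%), against 9.85% of all tested genes.

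**Figure D3:**
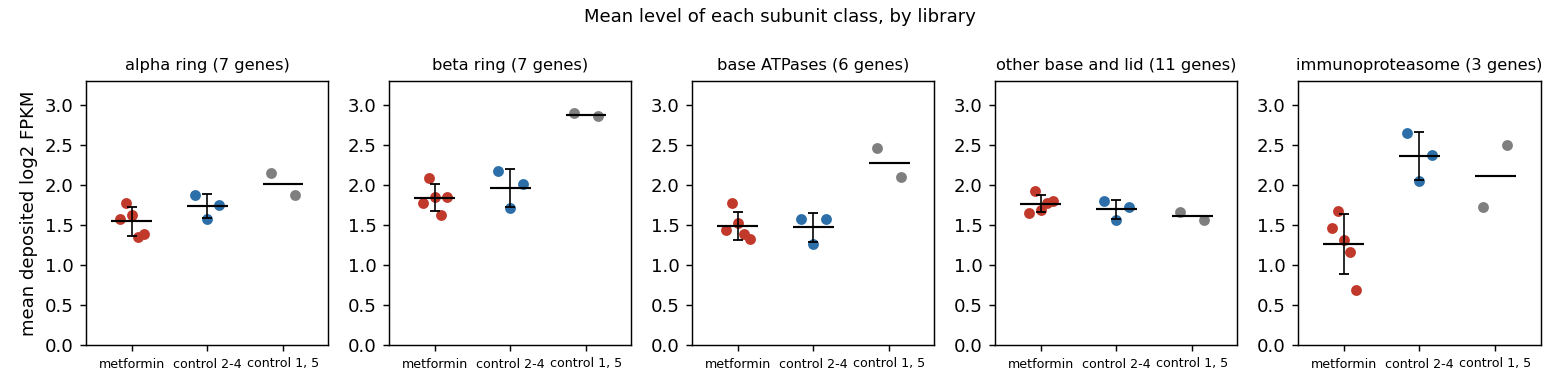
Mean deposited log2 FPKM of the members of 5 classes (y axis, from 0) in metformin, control 2 to 4 and control 1 and 5, with libraries as points, lines for means and bars for the SD over libraries. The immunoproteasome mean is 0.69 to 1.68 in metformin and 2.05 to 2.65 in control 2 to 4, and the beta ring mean is highest, at 2.90 and 2.86, in control 1 and control 5.

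Among the activators and the inhibitor, Psme4 (ENSMUSG00000040850, GRCm38 chr11:30771726-30880361, plus strand), which encodes PA200, an activator that caps the core without ATP, had low values that were higher in metformin than in control. Its log2 level was 1.24, 1.44, 1.31, 1.09 and 1.42 in metformin 1 to 5, against 0.84, 0.70 and 0.82 in control 2 to 4, 0.78 in control 1 and 0.80 in control 5. All metformin libraries were above all controls, and control 1 and control 5 did not differ from the other controls beyond their range. The difference was 0.51 on the log2 scale, a fold of 1.42 (SE 0.109, limma adjusted p = 0.0251), and 0.51 without control 1 and control 5 (adjusted p = 0.0286). Since Psme4 entered the test through the metformin group alone, these p-values do not support a difference, and with no filter on low values the adjusted p was 0.0583. The adjusted p was 0.0655 without control 5, 0.0579 without metformin 3 and 0.0690 without metformin 5. Ribosomal centring gave 1.34 (adjusted p = 0.000624). In the fit without control 1 and control 5 it was 0.0683, 0.0954 and 0.0701 without control 2, control 3 and control 4, and 0.0598 and 0.0648 without metformin 3 and metformin 5. The fast skeletal muscle markers split all metformin libraries from all controls in the same way, and their part in the level of Psme4 was not tested.

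Psme3 (ENSMUSG00000078652, chr11:101316213-101323537, plus strand), the gene of PA28gamma, a nuclear activator that does not need ubiquitin, was the most variable member. Its log2 level was 7.09, 7.26, 6.86, 7.05 and 6.57 in metformin 1 to 5, against 6.62, 6.36 and 7.33 in control 2 to 4, 0.85 in control 1 and 2.07 in control 5. By level it stood between place 57 and place 108 of the 8904 genes in each of the first 8 libraries, and at place 4094 in control 1 and 1080 in control 5. The mean of control 1 and control 5 was 5.31 log2 units below that of control 2 to 4 (difference -5.31), the largest such gap of the 47 members in either direction. The difference between metformin and control was 2.32 over all libraries (95% interval -0.26 to 4.90, limma adjusted p = 0.204) and 0.20 without control 1 and control 5 (-0.41 to 0.81, adjusted p = 0.644).

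Psmf1 (ENSMUSG00000032869, chr2:151715812-151744186, minus strand), the gene of PI31, a protein that inhibits the core particle in vitro, had the same split. It was 4.10, 4.94, 4.60, 4.16 and 4.30 in metformin 1 to 5, against 4.26, 3.27 and 4.56 in control 2 to 4, 0.41 in control 1 and 0.85 in control 5. The difference was 1.75 (SE 0.785, limma adjusted p = 0.17) and became 0.39 (SE 0.36, adjusted p = 0.497) without control 1 and control 5. Psmd4 (ENSMUSG00000005625, chr3:95032694-95042614, minus strand), a ubiquitin receptor of the regulatory particle, was 5.06, 6.00, 4.98, 5.33 and 5.07 in metformin 1 to 5, against 5.41, 4.26 and 5.40 in control 2 to 4, 3.69 in control 1 and 3.46 in control 5. It differed by 0.85 (adjusted p = 0.256) and by 0.27 without control 1 and control 5 (adjusted p = 0.643). These 3 genes were the highest members in all 8 libraries with high erythroid markers, and the erythroid marker mean was lowest in control 1 and control 5, as were they. In control 1 and control 5 the highest member was instead Psmb4. The part of the erythroid markers in these levels was not tested.

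**Figure D4:**
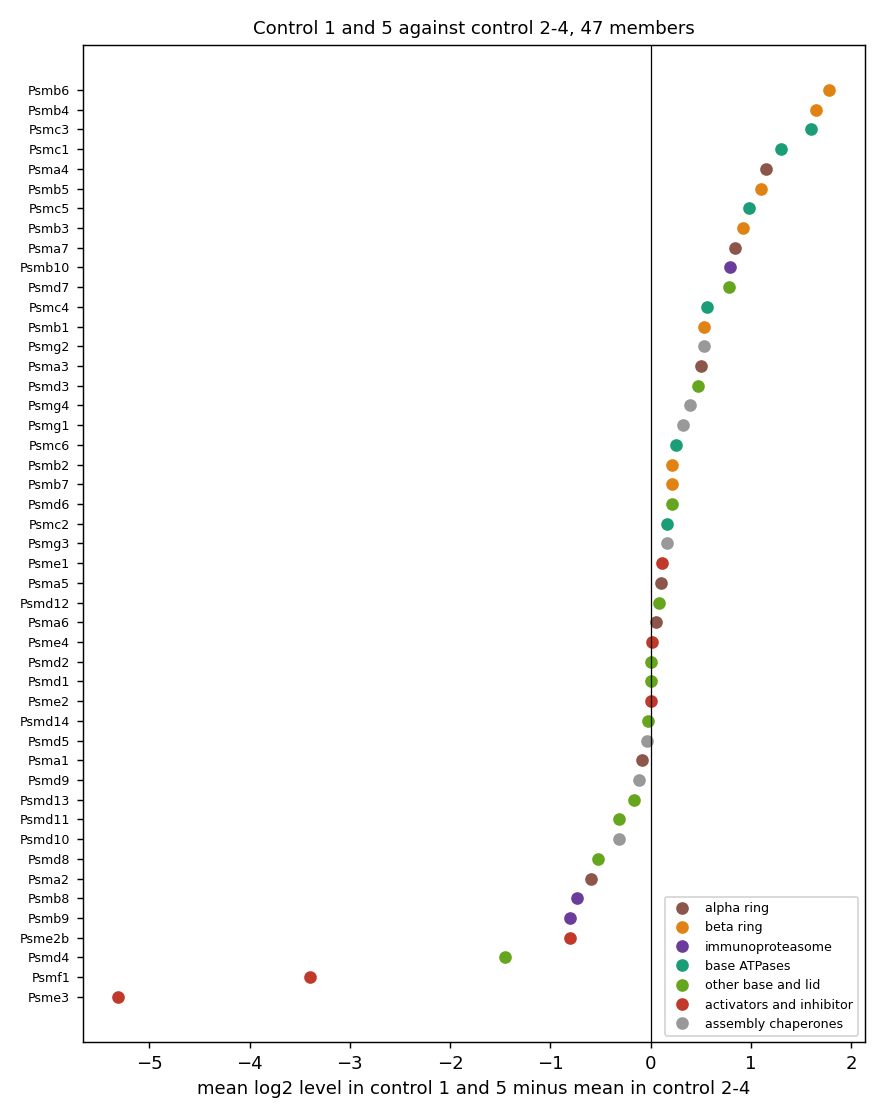
Mean log2 level in control 1 and 5 minus that in control 2 to 4 (x axis) for all 47 members (y axis, ordered by the difference and coloured by class), as a description with no test. Psmb6 lies at 1.78 and Psmb4 at 1.65 at the upper end, and Psmd4 at -1.45, Psmf1 at -3.40 and Psme3 at -5.31 at the lower end.

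The PA28alpha and PA28beta genes behaved otherwise than Psme3. Psme1, which with Psme2 encodes the interferon-inducible activator, was 2.61, 3.13, 2.79, 2.27 and 2.91 in metformin 1 to 5, against 3.74, 3.02 and 3.87 in control 2 to 4, 3.59 in control 1 and 3.70 in control 5. Metformin 2 overlapped control 3 and the other metformin libraries were below every control, with a difference of -0.84 (SE 0.294, limma adjusted p = 0.105) over all libraries and -0.80 (adjusted p = 0.101) without control 1 and control 5. Psme2 was 2.27 to 3.39 in metformin and 2.15 to 3.76 in the 5 controls, with a difference of -0.50 (adjusted p = 0.339). Psme1 minus Psme3 within a library was -4.22 ± 0.43 in metformin (SD, n = 5) and -3.23 ± 0.31 in control 2 to 4 (n = 3), but 2.74 in control 1 and 1.63 in control 5.

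The 7 assembly chaperones were too low for a test. The class mean was a log2 level of 0.56 to 0.84 in metformin, 0.54 to 0.84 in control 2 to 4 and 0.81 in both control 1 and control 5. Psmg4, which helps to place the alpha subunits, was 0.44 to 0.93 in metformin, 0.64 to 1.16 in control 2 to 4, 1.33 in control 1 and 1.42 in control 5. Psmd10, known as gankyrin, a chaperone of the base, was 0.66 to 1.31 in metformin, 0.55 to 0.99 in control 2 to 4, 0.39 in control 1 and 0.48 in control 5. With values this near 0, no difference between libraries is read from them.

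The other genes of the pathway were taken from a list of 35 names covering ubiquitin genes, shuttles, receptors, deubiquitinases, the Nfe2l1 axis and assembly factors, of which 29 were in the table and 19 were tested. At an adjusted p under 0.05, 1 of the 19 (5.26%) was higher (Usp14) and 1 was lower (Rps27a), in both fits, against 4.21% and 3.11% of all tested genes over all libraries and 5.81% and 9.06% without control 1 and control 5. Usp14, a deubiquitinase bound to the regulatory particle, was 1.50, 1.69, 1.47, 1.47 and 1.78 in metformin 1 to 5, against 0.93, 0.76 and 1.12 in control 2 to 4, 0.86 in control 1 and 0.53 in control 5. It reached the log2 minimum of 1 in 5 metformin libraries and in 1 control, so it entered the test through the group in which it was high, and its values are a description. The groups did not overlap, and the difference was 0.74 (SE 0.145, limma adjusted p = 0.019; 0.0478 with no filter), and 0.64 without control 1 and control 5 (adjusted p = 0.0209). Its adjusted p was 0.0598 without control 5 and 0.0572 without metformin 5, and ribosomal centring gave 1.57 (adjusted p = 0.00119). Rps27a, a ubiquitin gene fused to a ribosomal protein, fell by 1.59 (SE 0.391, adjusted p = 0.0347), with 3.69, 3.59, 3.62, 2.77 and 2.87 in metformin 1 to 5, against 4.72, 4.35 and 4.53 in control 2 to 4, 5.58 in control 1 and 5.31 in control 5. The adjusted p of Rps27a was 0.0813 without control 5, 0.0632, 0.0539, 0.0729, 0.105 and 0.103 without metformin 1, 2, 3, 4 and 5, 0.0918 with no filter and 0.0553 with the erythroid covariate. Centring on the ribosomal proteins, of which Rps27a is one, gave -0.76 (adjusted p = 0.0774).

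Nfe2l1, the factor that raises proteasome genes when the proteasome is inhibited, was 1.45 to 1.75 in metformin, 1.45 to 1.92 in control 2 to 4, 4.02 in control 1 and 3.29 in control 5, with a difference of -0.88 (limma adjusted p = 0.209) that was -0.10 (adjusted p = 0.7) without control 1 and control 5. Its levels were highest in control 1 and control 5, as were the means of the beta ring and the ATPases. Of all tested genes, 20% were likewise higher in both of these libraries than in all others. The part of Nfe2l1 in the subunit levels was not tested. Nfe2l2, its relative of the oxidative stress response, differed by -0.10 (adjusted p = 0.718), and Pomp, the maturation factor of the core, by -0.33 (adjusted p = 0.506). Fbxo7 and Ubb were named after their values were seen because they varied across the libraries like Psme3. Fbxo7, the substrate receptor of a ubiquitin ligase that binds PI31, was 3.41 to 4.13 in metformin, 2.14 to 3.80 in control 2 to 4, 0.80 in control 1 and 0.79 in control 5. Ubb, a polyubiquitin gene, was 10.87 to 11 in metformin, 10.73 to 11.17 in control 2 to 4, 5.89 in control 1 and 7.88 in control 5.

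**Figure D5:**
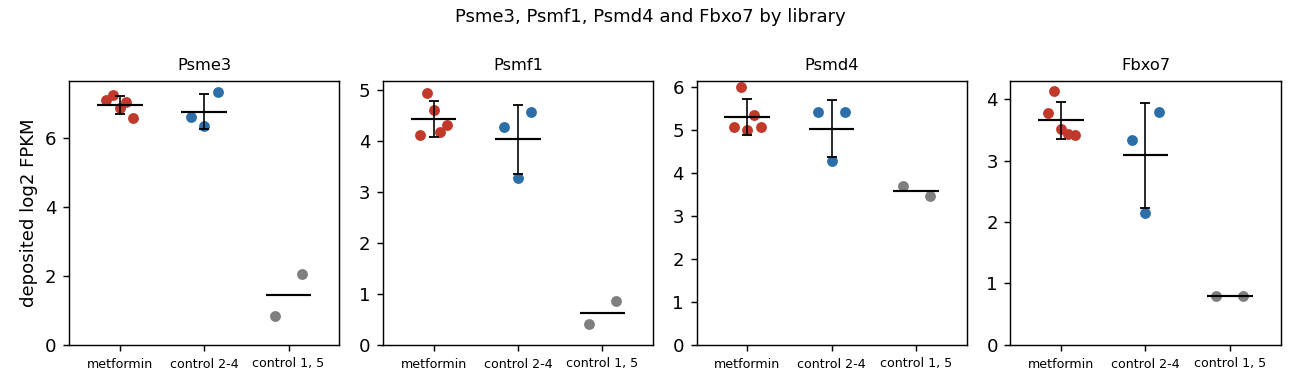
Deposited log2 FPKM (y axis, from 0) of Psme3, Psmf1 and Psmd4 and of the pathway gene Fbxo7 in metformin (red, 5 libraries), control 2 to 4 (blue) and control 1 and 5 (grey), with libraries as points, lines for means and bars for the SD over libraries. All 4 genes are lowest in control 1 and control 5, where Psme3 is 0.85 and 2.07, and metformin and control 2 to 4 overlap in each.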

How the data were processed

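The authors deposited 1 table of expression values for the 10 blood libraries, as log2 FPKM per gene, made with TopHat2 and Cufflinks on GRCm38 per the processing notes. Ranked from high to low, the 10 libraries hold almost the same values (largest SD 0.0399), as after quantile normalization, which the methods do not describe and which does not allow the original totals to be recovered. No source names the log offset, strand use is not given in the sources used here, and no counts were used, so the depth is unknown and no counting interval is given. Columns were matched to samples by title.

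The 3442 genes that reached a log2 FPKM of 1 in 5 or more libraries entered limma 3.58.1 in R 4.3.3 (lmFit, eBayes with trend, 2-sided), with Benjamini-Hochberg adjustment over these genes and a threshold of 0.05, and the 6 catalytic subunits also by exact permutation. Positions are from GENCODE M21 and promoters from RefSeq GRCm38.p6. Alternatives covered the pseudocount (0.1, taking an offset of 1), the filter, centring, libraries left out, a replicate block, an erythroid covariate and the variance model. Some were added after seeing the data: leaving out each library, or centring, within the fit without control 1 and control 5, and the AGATAA motif.

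The members, lists and the separation of control 1 and control 5 were chosen with earlier results of these data known. Named with values were the catalytic subunits, the activators and the inhibitor, each member past the threshold in either fit, the 2 members with the highest and the 2 with the lowest mean, the member with the largest change in each class, and of the pathway list those past the threshold with Nfe2l1, Nfe2l2, Pomp and Usp14. Psma4, Psma5, Psma7, Psmb4, Psmc3, Psmd6, Psmd10, Psmg4, Fbxo7 and Ubb were named in part after their values were seen. The values of 1 gene of the pathway list are not reported here.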

Additional observations from a re-analysis of the deposited data

Results flagged for a closer look

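In 4 of 94 groups of 5 libraries, 1 library lay far from the others by Dixon's test, and chance alone would single out about 1 group in 20. Psma5 was 1.36 in metformin 1, while the other metformin libraries were 1.43 to 1.45, so the gap is small on the log2 scale. Psmb8 was 1.66 in control 1, while the other controls were 2.88 to 3.35. Psmc2, an ATPase of the base, was 0.90 in control 3, while the other controls were 1.29 to 1.42. Psmd6 was 1.43 in control 1, while the other controls were 1.0 to 1.11.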

How the results depend on the processing

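Over all tested genes, 145 were higher and 107 lower in metformin. These counts were 60 and 13 with no filter, 52 and 64 with a log2 minimum of 2, 1894 and 17 when centred on 75 ribosomal protein genes, and 345 and 394 with array weights. With the erythroid covariate 331 were lower, and without control 1 and control 5, 312. Of the members, 1 was higher and 1 lower. These became 0 and 0 with no filter, 0 and 0 with the stricter minimum (13 members tested), and 21 and 0 under ribosomal centring. The lower members were 3 without control 1 and control 5, 2 with the erythroid covariate, 2 without the trend and 5 with array weights. Leaving out 1 library gave 43 to 296 higher and 8 to 237 lower genes, and 0 to 1 higher and 0 to 3 lower members. Against control 2 to 4, the 1 higher and 3 lower members became 20 and 1 under ribosomal centring, and 0 to 1 and 0 to 4 with 1 library left out. Over all libraries, ribosomal centring moved the median of all genes to 0.84 and that of the members to 0.66. Psmb8 was then -0.33 (limma adjusted p = 0.470). Against control 2 to 4 these medians were 0.77 and 0.63, and Psmb8 (-0.75, limma adjusted p = 0.0397) was still called lower. Over all libraries, ribosomal centring turned the sign of some genes from below 0 to above it with a call at a limma adjusted p under 0.05. These were Psmc5 (0.63), Psma6 (0.66), Psmc6 (0.82), Psmd13 (0.74), Psmd14 (0.78), Psmb2 (0.72), Psmc2 (0.67), Psma1 (0.66), Psmd7 (0.69), Adrm1 (0.47) and Nfe2l2 (0.73). Other members also turned sign under this centring but were not called, among them Psmc3 (-0.58 to 0.25) and Psmb9 (-0.82 to 0.01). The erythroid covariate turned the sign of Ubb (-0.82) with a call. The causes were not tested.

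With the replicate number as a block, 29 genes were higher and 1 lower, and 0 and 0 members. Same-numbered libraries correlated at -0.252 to 0.132 in their deviations. Low correlations do not exclude a pairing, and the labels do not say whether the numbers pair samples. Depth could not be assessed from these values, and members near a log2 value of 0 could not be ranked.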
